A study of Mus musculus with 15 samples.

Results

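The eotaxin and eosinophil genes are 8 of the 55487 genes listed for mouse conjunctiva: the ligands *Ccl11* and *Ccl24*, their receptor *Ccr3*, the surface lectin *Siglecf*, the cytokine *Il5* with its receptor chain *Il5ra*, and the granule genes *Epx* and *Prg2*. They were chosen by symbol, each matching 1 Ensembl identifier, and 5 of the 8 (*Ccl11*, *Ccl24*, *Ccr3*, *Siglecf* and *Il5ra*) had the 10 counts in 5 libraries that were required for a test across genes. RNA-Seq was performed on bulk conjunctival tissue of female wild-type mice of the BALB/c strain (spelled BALC/c in the labels), 9 to 12 weeks old. All mice, the controls included, had been sensitized in the skin with MC903 (calcipotriol, a vitamin D analog, 2.5 nmol per day for 7 days) and ovalbumin (OVA). Their eyes were then challenged daily for 7 days, until day 24, with PBS (PBS group, for which no antibody is named) or with OVA. The mice challenged with OVA also received intraperitoneal injections, begun before the eye challenges, of 25 mg/kg of an isotype control antibody (isotype group) or of an antibody blocking the IL-4 receptor α chain (anti–IL-4Rα group), and each of the 3 groups had 5 libraries. OVA challenge without blockade is therefore read from the isotype group against the PBS group, and blockade from the anti–IL-4Rα group against the isotype group.

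Eosinophils are granulocytes that mature in the bone marrow under IL-5 and enter tissues toward eotaxins, the chemokines that bind CCR3. In allergic tissue, eotaxins are made by stromal and epithelial cells and by macrophages, and IL-4 and IL-13 acting through IL-4Rα and STAT6 are known inducers. *Ccr3* is also carried by basophils, and Siglec-F by alveolar macrophages and tuft cells, so that none of these transcripts is read as an eosinophil count. In bulk tissue, fewer cells of a type and less RNA per cell cannot be told apart.

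*Ccr3*, *Siglecf* and *Il5ra* rose after OVA challenge and varied together between libraries, and the 250 bases upstream of their start sites are printed for that reason (RefSeq, GRCm38.p6, 5′ to 3′ on the strand of the gene). The capitals mark AGATAA, a form of the site bound by GATA factors, which was searched on both strands. They lie at chr9:124021721-124021970 (plus strand), chr7:43351091-43351340 (plus strand) and chr6:106749038-106749287 (minus strand).
Ccr3: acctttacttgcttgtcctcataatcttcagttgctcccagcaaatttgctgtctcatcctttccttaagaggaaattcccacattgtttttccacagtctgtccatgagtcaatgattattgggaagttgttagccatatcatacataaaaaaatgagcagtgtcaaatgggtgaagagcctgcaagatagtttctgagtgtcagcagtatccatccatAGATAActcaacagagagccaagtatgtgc
Siglecf: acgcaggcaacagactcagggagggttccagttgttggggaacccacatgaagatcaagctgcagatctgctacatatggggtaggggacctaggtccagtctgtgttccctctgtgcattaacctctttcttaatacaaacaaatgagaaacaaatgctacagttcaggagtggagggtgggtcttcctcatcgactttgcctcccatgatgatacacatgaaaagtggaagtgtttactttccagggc
Il5ra: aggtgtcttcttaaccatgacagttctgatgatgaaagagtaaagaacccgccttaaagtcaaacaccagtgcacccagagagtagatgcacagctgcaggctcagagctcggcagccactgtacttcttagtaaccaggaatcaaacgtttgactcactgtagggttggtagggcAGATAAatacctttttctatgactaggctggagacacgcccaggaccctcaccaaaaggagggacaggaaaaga
AGATAA was found at positions -30 to -25 of *Ccr3* and -74 to -69 of *Il5ra*, counted back from the start site, and not in these letters of *Siglecf*. Upstream sequences of *Il5* and *Epx* were also searched, and neither held the motif. Of 32851 promoters of the same length, 9.99% held it. A form of the STAT motif (TTC and GAA with NNNN between them, on both strands), present in 5.85% of all promoters, was found upstream of none of the 5 genes. Other spacings of this motif were not searched. *Ccl11*, *Ccl24* and *Prg2* were not matched in the promoter table.

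On a scale per length (FPKM, computed from counts per 1000000 counts of a TMM-normalized library, CPM, and from exon length), *Ccl11* had the highest level of the 8 genes in each group, with a mean of 24.5 ± 2.41 in the PBS group, 34.7 ± 10.2 in the isotype group and 16.5 ± 0.935 in the anti–IL-4Rα group (SD, n = 5). *Ccl24* was next at 4.13 ± 0.734, 5.40 ± 2.34 and 5.04 ± 0.555 FPKM, and the 2 eotaxins did not overlap in level in any group. *Ccr3* followed with 0.478 ± 0.0663, 1.69 ± 0.662 and 1.48 ± 0.771 FPKM. *Siglecf* had 0.361 ± 0.0569, 1.03 ± 0.457 and 0.934 ± 0.535 FPKM, and its range overlapped that of *Ccr3* in each group. *Il5ra* was lower still, at 0.0916 ± 0.0204, 0.281 ± 0.106 and 0.195 ± 0.132 FPKM. *Il5*, *Prg2* and *Epx* had means at or below 0.137 FPKM in every group. The range of *Il5* overlapped that of *Il5ra* in the PBS and anti–IL-4Rα groups, and the range of *Prg2* overlapped it in each group. Library totals ran from 48622246 to 87745024 counts, and all 15 libraries held conjunctival epithelium keratin and mucin transcripts (*Krt4*, *Krt5*, *Krt13*, *Krt19* and *Muc5ac*, together 7113 to 10993 CPM). In 7 libraries, secretory transcripts of the lacrimal gland (*Mucl2*, *Obp1a*, *Scgb2b2* and *Lcn11*) made up 3.03% to 13.7% of all counts, against at most 0.901% in the others. These lacrimal-rich libraries were PBS replicate 5, isotype replicates 1 and 4, and anti–IL-4Rα replicates 1, 2, 4 and 5, so that tissue content and group were partly confounded.

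**Figure D1:**
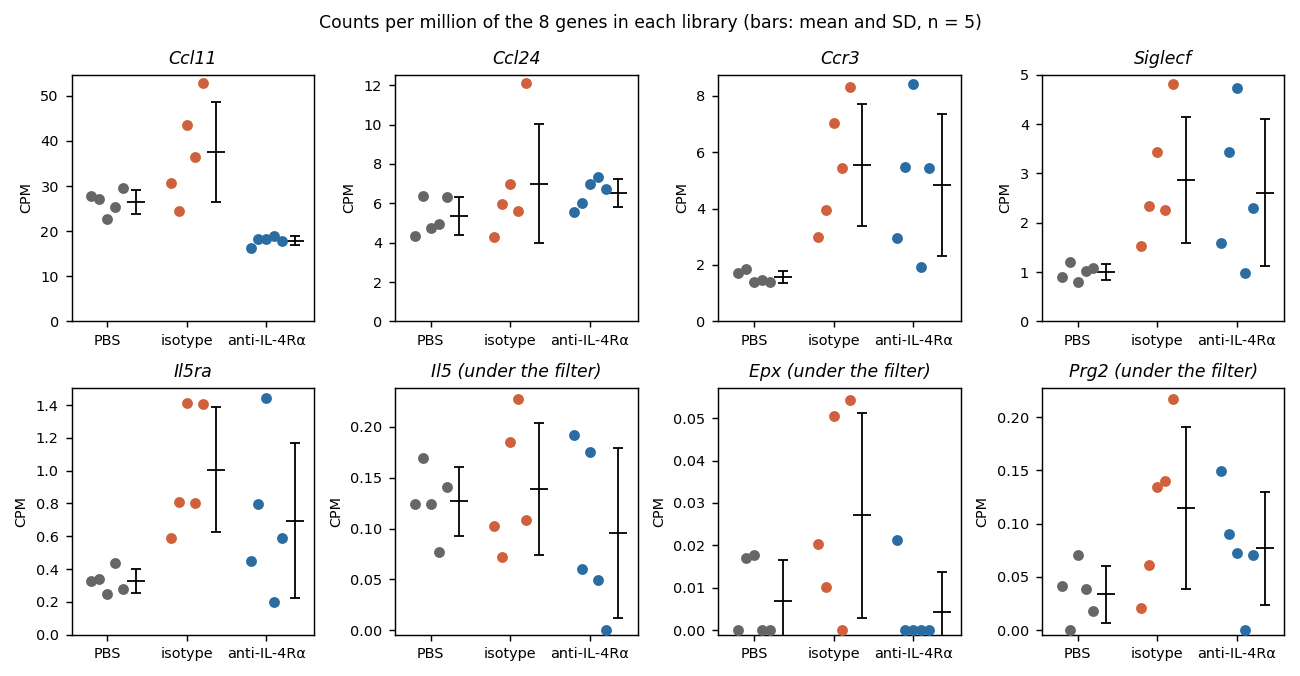
CPM (counts scaled to a common library size, y axis) of the 8 genes in each of the 15 libraries by group, replicates 1 to 5 from left to right, with bars for the mean and SD (n = 5). *Ccr3* was at most 1.87 CPM in the PBS libraries and at least 3.003 CPM in the isotype libraries, and *Ccl11* stayed between 16.3 and 19.0 CPM in the anti–IL-4Rα libraries, below the libraries of both other groups; *Il5*, *Epx* and *Prg2* rest on a few counts per library.

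After OVA challenge with isotype control, the receptor and surface genes of the set rose 2.85-fold to 3.53-fold over the PBS group and the eotaxin *Ccl11* rose 1.42-fold, whereas *Ccl24* did not pass the test. Of the 5 genes tested, 4 were called higher and none lower (edgeR quasi-likelihood test, Benjamini-Hochberg adjusted p under 0.05), where 9.53% of all 19006 genes tested were called higher. The median log2 fold change of the 5 was 1.51, beside -0.01 over all genes tested. For 3 of them the isotype libraries all exceeded the highest PBS library, as for 6.85% of all genes tested.

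*Ccr3*, the eotaxin receptor (ENSMUSG00000035448, chromosome 9, 124021972 to 124031689, GRCm38), was measured at 1.72, 1.87, 1.38, 1.47 and 1.39 CPM in PBS replicates 1 to 5 and at 3.003, 3.94, 7.04, 5.43 and 8.29 CPM in the isotype replicates. The groups did not overlap, and isotype replicates 3 and 5 were the highest. The log2 fold change was 1.82, with an SE of 0.36 and an edgeR adjusted p of 0.00598. *Siglecf*, a lectin receptor of the eosinophil surface (ENSMUSG00000039013, chromosome 7, 43351341 to 43359531), had 0.907, 1.20, 0.796, 1.03 and 1.09 CPM in the PBS libraries and 1.53, 2.33, 3.43, 2.25 and 4.80 CPM in the isotype libraries, again without overlap. Its log2 fold change was 1.51 (SE 0.38, edgeR adjusted p = 0.0178). *Il5ra*, the IL-5-binding chain of the IL-5 receptor (ENSMUSG00000005364, chromosome 6, 106710357 to 106749037), had 0.330, 0.339, 0.248, 0.440 and 0.281 CPM in the PBS libraries and 0.592, 0.808, 1.41, 0.804 and 1.41 CPM in the isotype libraries. All 5 isotype libraries were above the PBS libraries, and the log2 fold change was 1.61 (SE 0.41, edgeR adjusted p = 0.0186). For each of these 3 genes the two-sided exact permutation p was 0.00794, the minimum with 5 libraries in both groups. The calls of *Ccr3*, *Siglecf* and *Il5ra* held with each of the 15 libraries left out in turn. In a linear model on log2(FPKM + 1), *Siglecf* (adjusted p = 0.0697) and *Il5ra* (adjusted p = 0.0574) were not called, and on log2(CPM + 1) *Siglecf* was not (adjusted p = 0.0542).

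*Ccl11*, which encodes eotaxin-1 (ENSMUSG00000020676, chromosome 11, 82057823 to 82062955), was measured at 27.7, 27.1, 22.7, 25.4 and 29.5 CPM in the PBS libraries and at 30.7, 24.6, 43.5, 36.3 and 52.9 CPM in the isotype libraries. Isotype replicate 2 lay within the PBS range and the other 4 above it. The log2 fold change was 0.50 (SE 0.16, edgeR adjusted p = 0.0400), and the two-sided exact permutation p was 0.0556. The call rested close to the threshold: it was made in 6 of 11 alternative settings, and it ended without any 1 of the 5 PBS libraries, without isotype replicate 3, 4 or 5, or without anti–IL-4Rα replicate 5 (adjusted p = 0.0507 to 0.0973). *Ccl11* and *Ccr3* also belong to a set of chemokine genes that the study displayed from these same libraries, so their direction is not independent evidence. *Ccl24*, which encodes eotaxin-2 (ENSMUSG00000004814, chromosome 5, 135569937 to 135573049), had 4.32, 6.40, 4.76, 4.97 and 6.33 CPM in the PBS libraries and 4.31, 5.96, 6.97, 5.61 and 12.1 CPM in the isotype libraries. Isotype replicate 5 was the highest, and the other 4 isotype libraries ran from 4.31 to 6.97 CPM. The log2 fold change of *Ccl24* was 0.39 (95% interval -0.09 to 0.86, edgeR adjusted p = 0.247), and it was 0.09 without isotype replicate 5.

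The cytokine and the granule genes were near the limit of detection in conjunctiva. *Il5*, the eosinophil growth factor (ENSMUSG00000036117, chromosome 11, 53720794 to 53725106), had 9, 10, 7, 4 and 8 counts in the PBS libraries, 5, 7, 11, 13 and 6 in the isotype libraries and 9, 4, 12, 2 and 0 in the anti–IL-4Rα libraries. The 3 groups overlapped (two-sided exact permutation p = 0.865 after OVA challenge and 0.302 under blockade). *Prg2*, which encodes major basic protein of the granule core (ENSMUSG00000027073, chromosome 2, 84980461 to 84983632), had 3, 0, 4, 2 and 1 counts in the PBS libraries, 1, 6, 8, 8 and 12 in the isotype libraries and 7, 6, 5, 0 and 3 in the anti–IL-4Rα libraries. In CPM, 3 of 5 isotype libraries were above all PBS libraries, and the difference did not pass the exact permutation test (two-sided p = 0.0714). *Epx*, which encodes eosinophil peroxidase (ENSMUSG00000052234, chromosome 11, 87864000 to 87875536), had no more than 1 count in any PBS library, 1, 1, 3, 0 and 3 counts in the isotype libraries, and 1 count in anti–IL-4Rα replicate 1 with 0 in the other 4. A library listed at 0 allows up to 3 counts, or 0.0307 to 0.0741 CPM depending on its depth (counting error only). At this depth no difference in *Epx* was detectable between the groups.

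Under IL-4Rα blockade *Ccl11* fell by 1.07 on the log2 scale against the isotype group, a 2.10-fold difference, and it was the only one of the 5 genes tested that was called. None was called higher. Over all genes tested, 8.13% were called lower, and the median log2 fold change of the 5 was -0.19 beside 0.01 over all genes. *Ccl11* was measured at 16.3, 18.3, 18.2, 19.0 and 17.8 CPM in anti–IL-4Rα replicates 1 to 5. Each of these was below each isotype library, as for 4.96% of all genes tested, and the anti–IL-4Rα libraries spread over a much narrower range (SD 1.01 CPM) than the isotype libraries (SD 11.03 CPM). The SE of the log2 fold change was 0.16 (edgeR adjusted p = 0.00221; two-sided exact permutation p = 0.00794), and *Ccl11* was called in 11 of 11 alternative settings and in 15 of 15 fits that left out 1 library. Among the lacrimal-rich libraries, isotype replicates 1 and 4 had 30.7 and 36.3 CPM and the 4 anti–IL-4Rα libraries had 16.3 to 19.0 CPM. Without the lacrimal-rich libraries, which leaves 1 anti–IL-4Rα library, the log2 fold change was -1.16 and did not pass the test (adjusted p = 0.353).

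The receptor and surface genes had levels under blockade that overlapped those of the isotype group. *Ccr3* was at 2.94, 5.47, 8.39, 1.93 and 5.43 CPM in the anti–IL-4Rα libraries, with a log2 fold change against isotype of -0.19 (95% interval -0.92 to 0.54, edgeR adjusted p = 0.723). *Siglecf* was at 1.60, 3.44, 4.72, 0.988 and 2.29 CPM, with a log2 fold change of -0.13 (95% interval -0.92 to 0.66, edgeR adjusted p = 0.833). *Il5ra* was at 0.447, 0.799, 1.44, 0.198 and 0.591 CPM, with a log2 fold change of -0.50 (95% interval -1.34 to 0.34, edgeR adjusted p = 0.386). In all 3 genes anti–IL-4Rα replicate 3 was the highest and replicate 4 the lowest, and the interval of *Il5ra* includes both a fall of 1 log2 unit and no change. *Ccl24* was at 5.58, 6.01, 6.99, 7.34 and 6.71 CPM, within the isotype range, with a log2 fold change of -0.10 (95% interval -0.58 to 0.38, edgeR adjusted p = 0.780). Without anti–IL-4Rα replicate 3 the log2 fold changes of *Ccr3*, *Siglecf* and *Il5ra* were -0.49, -0.46 and -0.95 (edgeR adjusted p = 0.293, 0.360 and 0.0662), and in voom with quality weights they were -0.61, -0.59 and -1.09 (adjusted p = 0.198, 0.249 and 0.0543). Leaving out the lacrimal-rich libraries instead keeps replicate 3 as the only anti–IL-4Rα library, and its values gave 0.38, 0.42 and 0.26, which is no test of lacrimal content.

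**Figure D2:**
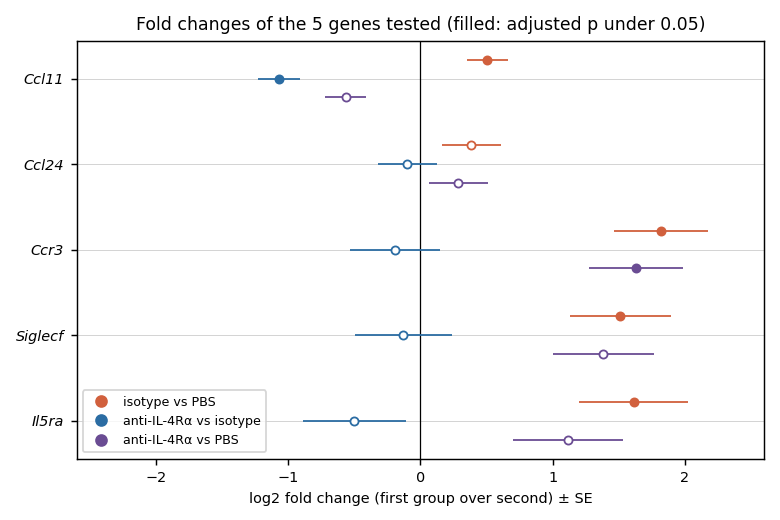
Log2 fold changes with their SE (x axis) of the 5 genes tested (y axis) in the 3 comparisons of groups, from 1 edgeR model over 15 libraries; filled points have an adjusted p under 0.05. *Ccl11* stands at 0.50 after OVA challenge and -1.07 under blockade, whereas *Ccr3* stands at 1.82 and -0.19.

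Against the PBS group, the anti–IL-4Rα group had higher *Ccr3* and, in every library, less *Ccl11*. *Ccr3* was 3.09-fold higher than with PBS (log2 1.63, SE 0.36, edgeR adjusted p = 0.0309) and was the only one of the 5 genes called higher, where 2.28% of all genes tested were. Its lowest anti–IL-4Rα library (1.93 CPM) was just above the highest PBS library (1.87 CPM), and 2.98% of all genes were separated in this direction. The call ended without 1 of PBS replicates 1 to 4, or without anti–IL-4Rα replicate 2 or 5 (adjusted p = 0.0580 to 0.0757) and was made in 7 of 11 alternative settings. *Siglecf* had a log2 fold change of 1.38 (95% interval 0.57 to 2.20, edgeR adjusted p = 0.0584) and *Il5ra* of 1.11 (95% interval 0.22 to 2.003, edgeR adjusted p = 0.129), which was 0.66 without anti–IL-4Rα replicate 3, 0.56 in voom with quality weights and 2.10 with replicate 3 as the only library of its group left. For both, 4 of 5 anti–IL-4Rα libraries were above all PBS libraries. *Ccl11* had a log2 fold change of -0.56 (SE 0.16) with an edgeR adjusted p of 0.0593, so it was not called, although all 5 anti–IL-4Rα libraries lay below all 5 PBS libraries (two-sided exact permutation p = 0.00794), as for 3.12% of all genes tested. DESeq2 (adjusted p = 0.0120), voom with quality weights (adjusted p = 0.0296) and a fit to the 2 groups alone (adjusted p = 0.00747) called *Ccl11* lower. The log2 fold change of *Ccl24* was 0.29 (95% interval -0.19 to 0.76, edgeR adjusted p = 0.476).

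Whether the genes changed by different amounts was tested on ratios within a library, which do not depend on its depth. Of 15 comparisons of 5 ratios, 8 had no overlap between the groups (each two-sided exact permutation p = 0.00794, adjusted p = 0.0149 over the 15). The log2 ratio of *Ccl24* to *Ccl11* was -2.31 ± 0.224 in the PBS group, -2.46 ± 0.356 in the isotype group and -1.46 ± 0.107 in the anti–IL-4Rα group (SD, n = 5). Under blockade the ratio was higher by 1.005 than in the isotype group and by 0.86 than in the PBS group, so that the 2 eotaxins changed unequally. The log2 ratio of *Ccr3* to *Ccl11* was -4.06 ± 0.200, -2.80 ± 0.305 and -2.06 ± 0.833 in the same order of groups. It was higher by 1.26 in the isotype than in the PBS group and by 1.999 in the anti–IL-4Rα than in the PBS group. Between the anti–IL-4Rα and isotype groups it differed by 0.74 with overlap (two-sided exact permutation p = 0.0873, adjusted p = 0.119), so the responses of *Ccr3* and *Ccl11* to blockade were not shown to differ. Without anti–IL-4Rα replicate 4, the one in the isotype range, this difference was 1.05 (exact permutation test, unadjusted p = 0.0159, the smallest possible). Leaving out the only overlapping library separates the groups by itself, so that p is not read as support for a difference. Without replicate 3 the difference was 0.51 (exact permutation test, unadjusted p = 0.175). The same ratios to *Ccl11* differed by 0.79 for *Siglecf* (exact permutation test, adjusted p = 0.129) and by 0.33 for *Il5ra* (exact permutation test, adjusted p = 0.544) between these groups.

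**Figure D3:**
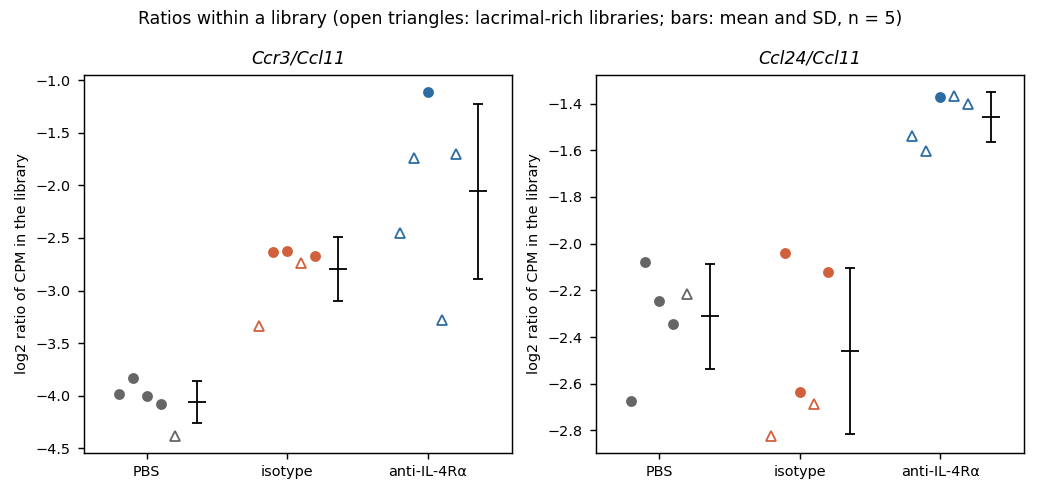
Log2 ratio of CPM within each library (y axis) for *Ccr3* to *Ccl11* and *Ccl24* to *Ccl11*, by group, with open triangles for the 7 lacrimal-rich libraries and bars for the mean and SD (n = 5). The *Ccl24* to *Ccl11* ratio is higher in all 5 anti–IL-4Rα libraries, lacrimal-rich or not, than in the other 10, and the *Ccr3* to *Ccl11* ratio of anti–IL-4Rα replicate 4 falls within the isotype range.

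*Ccr3*, *Siglecf* and *Il5ra* varied together between libraries of the same group. With log2 CPM centered within groups over 15 libraries, Pearson's r was 0.94 for *Ccr3* with *Siglecf* (Spearman's rho 0.91), 0.92 for *Ccr3* with *Il5ra* (rho 0.93) and 0.94 for *Siglecf* with *Il5ra* (rho 0.96). The adjusted permutation p over 15 relations was 0.0012, 0.0015 and 0.00075 for r, and 0.0021, 0.0015 and 0.0015 for rho. Without the 2 libraries farthest from the median of the first gene, r was 0.88, 0.84 and 0.89. Within the lacrimal-poor libraries (n = 7, with the lone anti–IL-4Rα library left out) r was 0.91, 0.75 and 0.79, and within the lacrimal-rich (n = 6, with the lone PBS library left out) it was 0.94, 0.93 and 0.98. *Ccl11* and *Ccr3* had an r of 0.48 (rho 0.50, adjusted permutation p = 0.160 and 0.159), which was 0.98 in the 7 lacrimal-poor libraries and 0.24 in the 6 lacrimal-rich ones. *Ccl11* and *Ccl24* had an r of 0.72 (rho 0.66, adjusted permutation p = 0.154 and 0.0764). None of the 5 genes was related to a score of lacrimal acinar genes at an adjusted p under 0.05, with r between -0.21 and 0.38 over the 15 libraries. These pooled values join opposite signs for *Ccr3*, *Siglecf* and *Il5ra*, whose r with the score was 0.59, 0.75 and 0.77 in the 7 lacrimal-poor libraries and -0.57, -0.78 and -0.71 in the 6 lacrimal-rich ones, given without a test.

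**Figure D4:**
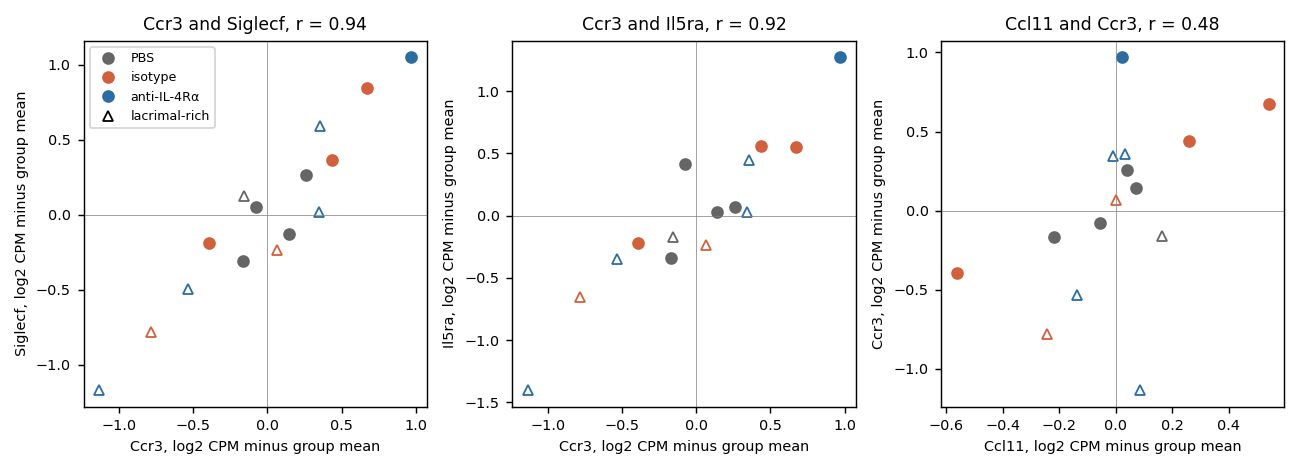
Log2 CPM minus the group mean in each of the 15 libraries for *Ccr3* and *Siglecf*, *Ccr3* and *Il5ra*, and *Ccl11* and *Ccr3* (both axes in log2 units), colored by group, with open triangles for the lacrimal-rich libraries. *Ccr3* follows *Siglecf* (r = 0.94) and *Il5ra* (r = 0.92) along a line from anti–IL-4Rα replicate 4 to replicate 3, whereas *Ccl11* and *Ccr3* scatter more widely (r = 0.48).

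The genes whose pattern was most like each of these 5, of all 19006 genes tested, are given as a description by Pearson's r of group-centered log2 CPM over the 15 libraries. *Ccr3* was closest to *Cxcr3*, a chemokine receptor of T cells (r = 0.95), then *Tmem71* (0.93) and *Cyp4f18* (0.93). *Siglecf* was closest to *Gm15922* (0.95), *Gapt* (0.95) and *Lat2* (0.94), the last an adaptor of immune receptor signaling. *Il5ra* was closest to *Itga4*, the integrin α4 chain of leukocytes (0.94), then *Slc25a45* (0.93) and *Glb1l* (0.93). *Ccl11* was closest to *Cr1l*, a complement regulator (0.92), *Cd209b*, a C-type lectin (0.91), and *Daglb* (0.90). *Ccl24* was closest to *Gstp-ps* (0.91), the chemokine *Ccl9* (0.90) and the macrophage growth factor *Csf1* (0.89).

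Other genes of eosinophil biology rose with OVA challenge, and a smaller number fell under blockade. Of 27 such genes in 6 lists, 23 were tested, and 16 of the 23 were called higher and none lower in the isotype group against PBS, with a median log2 fold change of 1.33. Under blockade 8 of the 23 were called lower than in the isotype group and none higher, with a median of -0.42. Against PBS, 2 were called higher and 2 lower in the anti–IL-4Rα group. Of all genes tested, 2.28% were called higher and 1.44% lower in that comparison. Beside these counts, 9.53% of all genes tested were called higher after OVA challenge and 8.13% lower under blockade. *Ear1*, counted among the genes called lower under blockade and against PBS, reached 10 counts only in PBS and isotype libraries. *Hrh4*, with at most 9 counts in a PBS library, and *Il4*, with at most 10, passed the filter through the OVA-challenged groups. The calls of these genes are therefore not independent of the filter.

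Among the other ligands of CCR3, *Ccl5* and *Ccl7* rose after OVA challenge and *Ccl28* was not called. *Ccl28* averaged 4.78 ± 4.30 CPM in the isotype group and 23.7 ± 15.2 CPM under blockade. That log2 fold change of 2.32 lay just outside the threshold (SE 0.75, edgeR adjusted p = 0.0509). The lacrimal-rich anti–IL-4Rα libraries had 17.8 to 41.6 CPM of *Ccl28*, and anti–IL-4Rα replicate 3 had 2.52 CPM. The part of lacrimal tissue in these values was not tested. *Ccl7* averaged 2.18 ± 0.536 CPM with PBS and 7.66 ± 5.28 CPM with OVA and isotype control (log2 fold change 1.82, SE 0.42, edgeR adjusted p = 0.0125) and 2.52 ± 1.09 CPM under blockade, where it fell by 1.61 (SE 0.42, edgeR adjusted p = 0.0259). That fall was called in 6 of 11 alternative settings. *Ccl5* was at 1.01 ± 0.215 CPM in the PBS group, 2.52 ± 0.733 CPM in the isotype group and 2.57 ± 0.626 CPM under blockade, and it was higher than in the PBS group in both (log2 fold change 1.33, SE 0.23, edgeR adjusted p = 0.00285, and 1.36, SE 0.23, edgeR adjusted p = 0.0147).

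Of the other granule genes, *Prg3* and *Ear6* had 0 to 4 counts per library and were not tested, and the eosinophil-associated ribonucleases *Ear1* and *Ear2* were both lower under blockade. *Ear2* averaged 6.71 ± 1.83 CPM with PBS and 14.7 ± 3.68 CPM with OVA and isotype control (log2 fold change 1.13, SE 0.23, edgeR adjusted p = 0.00710) and 3.54 ± 0.979 CPM under blockade, where it fell by 2.05 (SE 0.24, edgeR adjusted p = 0.000383). All 5 anti–IL-4Rα libraries were below the libraries of both other groups, and against PBS *Ear2* fell by 0.91 (SE 0.23, edgeR adjusted p = 0.0472). That last call was made in 5 of 11 alternative settings and in 4 of 15 fits with 1 library left out. *Ear1* had between 7 and 19 counts in the PBS libraries, 5 to 15 in the isotype libraries and 1 or 2 in the anti–IL-4Rα libraries (adjusted p = 0.0125 and 0.00763 in edgeR, for blockade against PBS and against isotype). Its summed rate was 6.92 times as high in the isotype as in the anti–IL-4Rα group (exact 95% interval 2.97 to 19.8, counting error only). *Ear1* passed the filter only through PBS and isotype libraries, where it was higher, so its calls are not independent of the filter. The *Ear* genes are near-identical copies, and although only uniquely mapped reads entered, their values remain uncertain where the copies share sequence. Macrophages also express *Ear2*.

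Of 8 surface and lipid mediator genes, 6 were called higher after OVA challenge and 3 lower under blockade. Of all genes tested, 9.53% and 8.13% were called in these directions. *Hrh4*, 1 of the 6, passed the filter through the OVA-challenged groups, so its call is not independent of the filter. *Alox15*, a lipoxygenase of eosinophils and macrophages, averaged 33.1 ± 9.79 CPM with PBS and 177.8 ± 94.8 CPM with OVA and isotype control (log2 fold change 2.42, SE 0.39, edgeR adjusted p = 0.00208) and 36.4 ± 16.3 CPM under blockade, where it fell by 2.29 (SE 0.38, edgeR adjusted p = 0.00446). *Il1rl1*, the IL-33 receptor, fell by 1.60 (SE 0.30, edgeR adjusted p = 0.00769) and the chemokine receptor *Ccr1* by 1.25 (SE 0.27, edgeR adjusted p = 0.0127) against isotype, after increases of 2.27 and 2.14. *Hrh4*, *Adgre1* and *Cd300lf* were called higher after OVA challenge (log2 fold changes 1.91, 1.04 and 1.89) and were not called under blockade. *Ltc4s* and *Ptgdr2*, the rest of this list, were not called in any of the 3 comparisons. Against PBS, *Ltc4s* stood at -0.27 in the isotype group and -0.57 in the anti–IL-4Rα group (edgeR adjusted p = 0.282 and 0.0665). All 5 anti–IL-4Rα libraries were below the PBS libraries, as for 3.12% of all genes tested. *Ptgdr2* stood at 0.40 and 0.19 (edgeR adjusted p = 0.615 and 0.868). In the IL-5 receptor family, the shared signaling chain *Csf2rb* and its paralog *Csf2rb2* rose by 1.41 and 1.34 and fell by 0.85 and 0.72 under blockade, *Il3ra* rose by 0.60, and *Csf2* and *Csf2ra* were not called. *Csf2rb* and *Csf2rb2* are close copies that can share reads. *Il3* was not tested.

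The lineage factors *Gata1* and *Cebpe* and the type 2 cytokines *Il4* and *Il13* were also called higher after OVA challenge. *Gata1*, a factor of eosinophils, basophils and mast cells, rose by 1.73 on the log2 scale (SE 0.39, edgeR adjusted p = 0.0108), and *Cebpe*, a factor of granulocyte maturation, by 2.02 (SE 0.38, edgeR adjusted p = 0.00465). *Cebpe* was also higher in the anti–IL-4Rα than in the PBS group (1.60, SE 0.38, edgeR adjusted p = 0.0373), a call made in 7 of 11 alternative settings. *Il4* (0.0509 to 0.153 CPM in the PBS libraries and 0.210 to 0.596 CPM in the isotype libraries) rose by 1.74 (edgeR adjusted p = 0.0166), and *Il13* (0.345 ± 0.0965 and 0.855 ± 0.191 CPM) by 1.30 (edgeR adjusted p = 0.00717). With at most 10 counts in a PBS library, *Il4* passed the filter through the OVA-challenged groups, so its call is not independent of the filter. *Gata2* was not called in any of the 3 comparisons, *Gata1*, *Cebpe*, *Il4* and *Il13* were not called between the anti–IL-4Rα and isotype groups, and *Il9* was not tested.

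**Figure D5:**
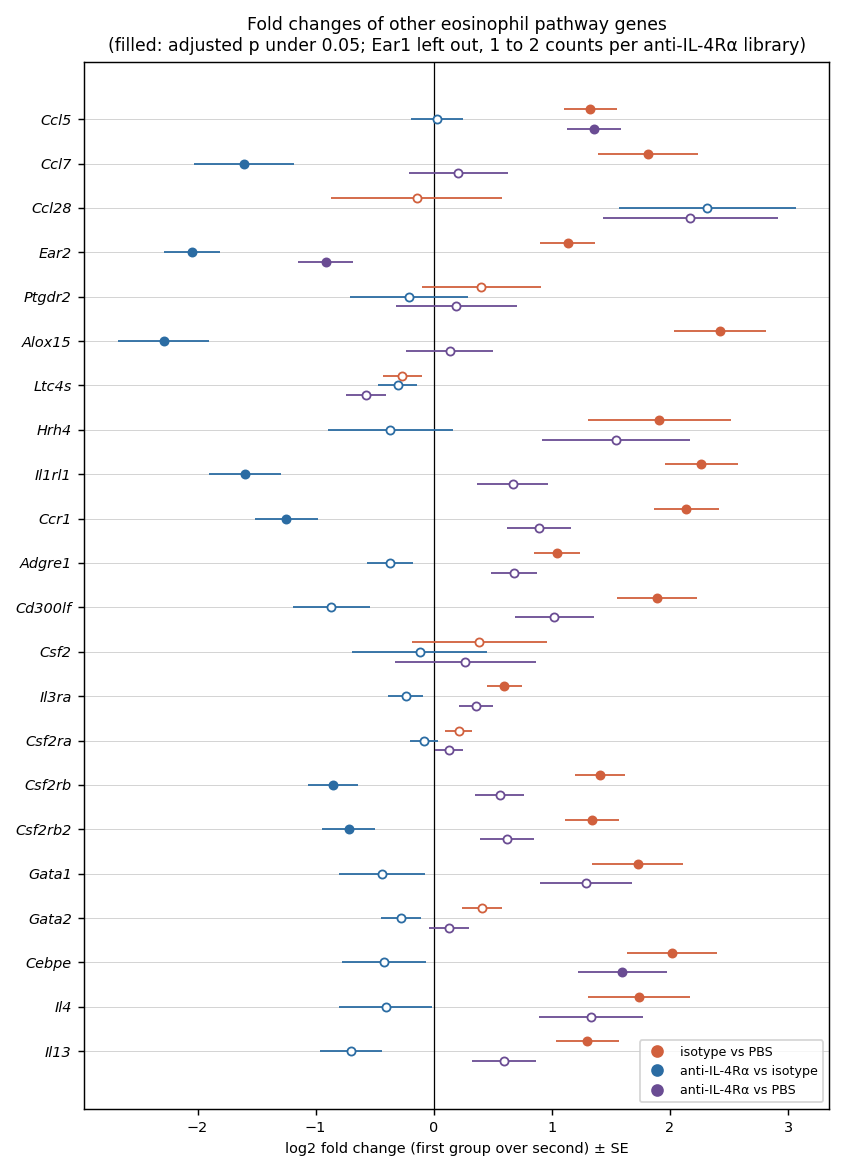
Log2 fold changes with their SE (x axis) of 22 of the 23 other eosinophil pathway genes tested (y axis) in the 3 comparisons; filled points have an adjusted p under 0.05, and *Ear1* is left out because it had 1 or 2 counts in each anti–IL-4Rα library. *Alox15* and *Ear2* show the largest falls under blockade among the genes plotted (-2.29 and -2.05), and *Ccl5* stands at 1.33 and 1.36 over PBS in the isotype and anti–IL-4Rα groups.

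Markers of other leukocytes moved in the same comparisons. After OVA challenge, 3 of 3 basophil markers (*Mcpt8*, *Cd200r3* and *Fcer1a*) were called higher, where 9.53% of all genes tested were. Their summed level went from 0.495 to 1.21 CPM in the PBS libraries to 2.74 to 12.9 CPM in the isotype libraries. The study named these 3 genes as higher from these same libraries, so their count is not independent evidence. *Mcpt8*, with at most 4 counts in a PBS library, passed the filter through the OVA-challenged groups. *Cpa3*, which the study also named and which is listed here with mast cells, was not called (log2 fold change 0.52, edgeR adjusted p = 0.0825). Under blockade the summed level of the basophil markers was 1.61 to 3.84 CPM. Of these markers, 1 of 3 was called lower than in the isotype group, where 8.13% of all genes tested were called lower. Against the PBS group, 2 of 3 were called higher. Of 5 macrophage markers, 4 were called higher after OVA challenge (summed level 306 to 319 CPM in the PBS libraries, 385 to 829.4 CPM in the isotype libraries) and 2 lower under blockade (358 to 475 CPM). Of 5 mast cell markers 2, of 4 T cell markers 2 and of 4 tested neutrophil markers 2 were called higher after OVA challenge, and under blockade 1 neutrophil marker and none of the mast cell or T cell markers was called lower. None of 4 tuft cell, 5 conjunctival epithelium and 6 lacrimal acinar markers was called in that first comparison, 1 of 4 fibroblast markers (*Dcn*) was lower, and 3 of 3 skeletal muscle markers were lower, where 7.49% of all genes tested were called lower. Under blockade 1 fibroblast marker (*Dcn*) and 1 lacrimal marker (*Aqp5*) were higher than in the isotype group, where 6.73% of all genes tested were called higher. Calls above PBS in the anti–IL-4Rα group were not limited to basophil markers, and 2.28% of all genes tested were called higher there. *Cd4* (log2 fold change 1.495), *C1qa* (0.67) and *Aqp5* (0.61) were also called higher (edgeR adjusted p = 0.0303, 0.0337 and 0.0398). No mast cell, neutrophil, tuft cell, fibroblast, epithelium or muscle marker was called in that comparison. None of the markers that define these lists was at 0 in all libraries. The part of these cell types in the values of *Ccl11*, *Ccl24*, *Ccr3*, *Siglecf* and *Il5ra* was not tested. The granule transcripts *Epx*, *Prg2* and *Prg3* were at or near 0 in each library, with at most 12 counts. By histology, the paper reported that eosinophils and monocytes accumulated in conjunctiva and eyelid after OVA challenge relative to PBS. These low counts are therefore not read as an absence of eosinophils.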

How the data were processed

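Paired reads came from stranded polyA libraries. Per the paper's methods and the labels, the authors used Omicsoft Array Studio to map read pairs to mouse B38, kept those that mapped uniquely and assigned them to Ensembl genes; the rules of counting beyond that, strand included, are not given in the sources used here. The values that the authors deposited are estimated counts per gene, made by that mapping and neither scaled for depth nor filtered, and they were rounded to whole numbers for testing. Groups were taken from the labels, and all 15 libraries were kept; the methods mention outliers that are not identified. Totals were 48622246 to 87745024 counts. The 19006 of 55487 genes that reached 10 counts in 5 or more libraries were fitted in 1 edgeR 4.0.16 quasi-likelihood model (R 4.3.3) with TMM factors and a term per group, two-sided, and called at an adjusted p under 0.05 without a limit on the fold change. Each SE is the log2 fold change over the square root of F. CPM used the TMM factors, log2 CPM a prior count of 2, and FPKM the exon length. Single values were compared by exact permutation over 252 splits, and correlations by 100000 permutations within groups. P-values measure the spread between these libraries. Alternatives used limma 3.58.1 and DESeq2 1.42.0. Symbols, positions and lengths came from GENCODE M21 (GRCm38), which matched 55141 identifiers and left 346 unmatched, and promoters from RefSeq (GRCm38.p6). The test steps were checked on simulated counts. Named genes were the 8 members, all genes of the 6 pathway lists and, for each tested member, the 3 genes of highest r. The members, gene lists and tests were chosen with earlier results of these data known, and the alternative without the lacrimal-rich libraries (secretory transcripts above 2% of counts) after seeing these data.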

Additional observations from a re-analysis of the deposited data

Results flagged for a closer look

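*Epx* in the anti–IL-4Rα group had 1 library apart from the others: replicate 1 was at 0.0213 CPM, which is 1 count, and the other 4 libraries were at 0. Of 24 groups of values (8 genes in 3 groups) this was the only one with a library that stood apart by Dixon's test. With the other 4 libraries tied at 0, any count in replicate 1 sets this flag. The rate of about 1 in 20 groups marked by chance therefore does not apply to it.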

How the results depend on the processing

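The alternatives were other size factors (DESeq2's median ratios and upper quartiles), DESeq2, voom with quality weights, linear models on log2(FPKM + 1) and log2(CPM + 1), other filters, a fit to the 2 groups compared, replicate numbers as a block, a lacrimal score as a covariate, other thresholds, 1 library left out at a time and, chosen after seeing the data, no lacrimal-rich libraries (which leaves anti–IL-4Rα replicate 3 alone in its group, assumed to vary like the others, so that these values are that library's and test no effect of lacrimal content). Of 180 fold changes of the 5 genes tested under 12 such settings, 158 kept their direction and side of the threshold, as did 202 of 225 with 1 library left out. For isotype against PBS, the number of genes called (4) was 1 on log2(FPKM + 1), 2 on log2(CPM + 1) and 1 at an adjusted p under 0.01. For anti–IL-4Rα against isotype the 1 gene called became 0 without the lacrimal-rich libraries. For anti–IL-4Rα against PBS the 1 gene called became 3 with DESeq2 or at an adjusted p under 0.1, 2 with voom or with the 2 groups alone, and 0 in both linear models, with the lacrimal covariate, with the replicate block, at an adjusted p under 0.01 and without the lacrimal-rich libraries; it was 0 to 2 with 1 library left out. Below the threshold fell *Ccl11* for isotype against PBS, at 0.43 on log2(FPKM + 1), 0.42 on log2(CPM + 1), 0.51 without a filter, 0.51 with the 2 groups alone and 0.66 without the lacrimal-rich libraries. So did *Siglecf* (0.55 on log2(FPKM + 1) and 0.88 on log2(CPM + 1)) and *Il5ra* (0.23 on log2(FPKM + 1)). A pseudocount of 1 makes the fold changes of low genes smaller on these scales, and its part in the lost calls was not tested. *Ccl11* for anti–IL-4Rα against isotype was -1.16 without the lacrimal-rich libraries. *Ccr3* for anti–IL-4Rα against PBS fell below the threshold at 0.68 on log2(FPKM + 1), 1.06 on log2(CPM + 1), 1.77 with the lacrimal covariate and 2.39 without the lacrimal-rich libraries. *Ccl11* for anti–IL-4Rα against PBS passed the threshold at -0.56 with DESeq2, -0.55 with voom and -0.56 with the 2 groups alone, and *Siglecf* at 1.39 with DESeq2. Without the lacrimal-rich libraries, *Ccr3*, *Siglecf* and *Il5ra* for anti–IL-4Rα against isotype turned to 0.38, 0.42 and 0.26 (against -0.61, -0.59 and -1.09 with voom), and the *Ccl24* to *Ccl11* ratio for isotype against PBS to 0.070. In those libraries the *Ccr3* to *Ccl11* ratio differed by 1.34 for isotype against PBS (two-sided exact permutation p = 0.0571, the smallest possible) and by 2.87 for anti–IL-4Rα against PBS (no test). With 1 library left out, the ranges were 0.35 to 0.63 (*Ccl11*, isotype against PBS), -0.62 to -0.52 (*Ccl11*), 1.33 to 1.83 (*Ccr3*) 1.06 to 1.59 (*Siglecf*) and 0.66 to 1.34 (*Il5ra*) for anti–IL-4Rα against PBS, and -0.23 to 0.19 (*Ccl24*), -0.49 to 0.0086 (*Ccr3*), -0.46 to 0.13 (*Siglecf*), -0.95 to -0.28 (*Il5ra*) and 0.51 to 1.05 (*Ccr3* to *Ccl11* ratio) for anti–IL-4Rα against isotype. *Ccl11* for anti–IL-4Rα against PBS was called without isotype replicate 2 or 5, and *Siglecf* without anti–IL-4Rα replicate 4. The causes of these shifts were not tested. At 0 to 13 counts per library, *Il5*, *Epx* and *Prg2* allow no statement on differences.

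Replicate numbers did not pair the libraries: deviations of libraries with the same number correlated between -0.38 and 0.45. With the replicate block, *Ccl11* for isotype against PBS was 0.47 (adjusted p = 0.0698) and *Ccr3* for anti–IL-4Rα against PBS was 1.47 (adjusted p = 0.0564), so both were no longer called, and the block changed no other call of the 5 genes (3, 1 and 0 called in place of 4, 1 and 1).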
